A study of Mus musculus with 6 samples.

Results

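The alarmins S100a8 and S100a9, the small proline-rich proteins Sprr1a, Sprr1b, Sprr2d, Sprr2h and Sprr3, the protease inhibitor Slpi and the protease Klk6 were followed in mouse skin with and without alopecia areata, an autoimmune hair loss. These 9 genes were taken as a named set, and every probe set whose single gene symbol was one of them was used. Each gene had 1 such probe set, so the set held 9 of 45037 probe sets and 9 of 18193 genes tested. Total RNA of skin was hybridised from 6 mice, 1 array each, all of the inbred strain C3H/HeJ. In the first group, 3 mice with the phenotype Alopecia Areata gave affected alopecic skin; in the second, 3 mice with the phenotype unaffected gave unaffected skin. The series title calls the disease spontaneous, and no treatment is named. The sources used here do not give age, sex, body site or stage of the hair cycle. The comparison asked how the 9 genes differed between the groups. Krt14, the keratin of basal keratinocytes and a defining gene of skin, had log2 values between 13.47 and 14.28 on the 6 arrays.

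S100A8 and S100A9 are small calcium-binding proteins that pair as calprotectin. Neutrophils and monocytes store them in large amounts, stressed keratinocytes make them, and once released they act as danger signals through receptors that include TLR4. Small proline-rich proteins are precursors of the cornified envelope, the protein shell of a dying keratinocyte, into which transglutaminases cross-link them; several are known to be induced in wounded or inflamed epidermis. SLPI inhibits neutrophil elastase and cathepsin G, and KLK6 is a secreted trypsin-like serine protease. C3H/HeJ mice carry a mutation that impairs Tlr4 signalling.

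None of the 9 genes passed the test between alopecic and unaffected skin (limma, threshold of 0.05 on the Benjamini-Hochberg adjusted p), where 0.275% of all genes passed. Nor did any of their 9 probe sets pass in a fit of all 45037 probe sets, of which 0.142% passed. None had an unadjusted limma p under 0.05 either, against 7.15% of all genes. In each of the 9 the values of the groups overlapped, whereas 13.1% of all genes had groups that did not overlap. The estimated log2 difference, alopecic minus unaffected, was above 0 for 8 of the 9, with a median of 0.69 and a range from -0.41 (Sprr2h) to 1.97 (Klk6). Over all genes 48.6% of differences were above 0 and the median was -0.01. The 9 genes were read on the same 6 arrays, so their signs are not independent of each other. Without unaffected replicate 3, Sprr1a, Sprr1b and Sprr3 also had differences below 0, at -1.15, -1.41 and -0.05. The values are on the log2 RMA scale, in which 1 unit is a doubling of signal, and low signals are compressed.

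**Figure D1:**
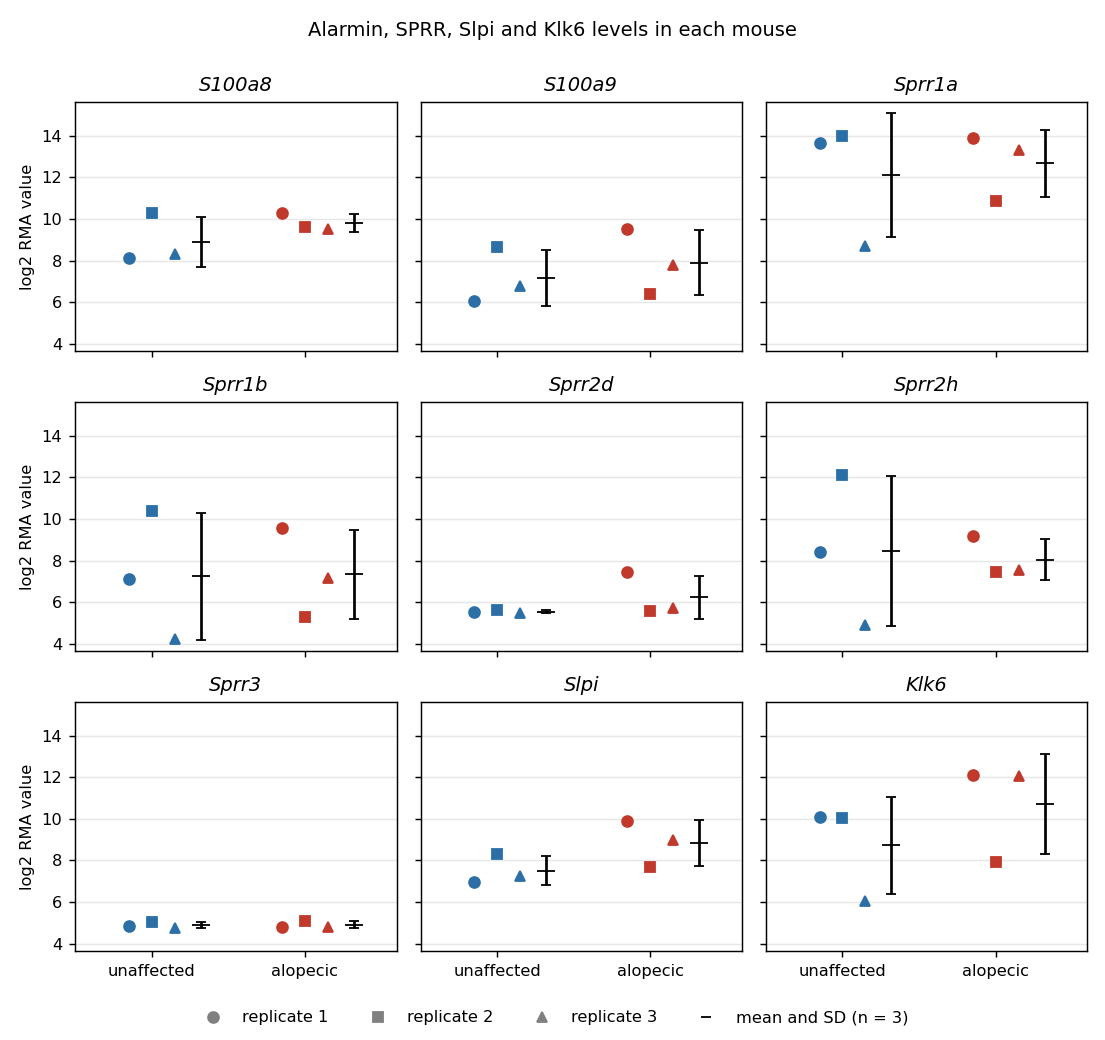
Each panel plots the log2 RMA value of 1 gene (vertical axis) in 3 unaffected mice (blue) and 3 alopecic mice (red), with symbols for the replicate and bars for the group mean and SD. The groups overlap in all 9 panels, and Sprr2h spans 4.89 to 12.11 within unaffected skin.

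The calprotectin subunits were highest in alopecic replicate 1, and unaffected replicate 2 came next for both. S100a8 had log2 values of 10.29, 9.61 and 9.54 in alopecic replicates 1, 2 and 3, and of 8.11, 10.28 and 8.34 in unaffected replicates 1, 2 and 3. Unaffected replicate 2 thus lay just below the highest alopecic array, while the other unaffected arrays lay below all alopecic ones. The difference was 0.91 (SE 0.61, 95% interval -0.61 to 2.42, limma adjusted p = 0.857), or 1.87-fold. With 1 array left out it ran from 0.50 without unaffected replicate 1 (SE 0.64, limma adjusted p = 0.861) to 1.59 without unaffected replicate 2 (SE 0.28, limma adjusted p = 0.385). The latter was the lowest adjusted p of S100a8 over the alternatives run and still missed the threshold. Its probe set carries a suffix that the manufacturer gives to probe sets matching more than 1 transcript.

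S100a9 followed the same arrays less closely. Its log2 values were 9.53, 6.38 and 7.81 in alopecic and 6.08, 8.66 and 6.80 in unaffected replicates 1, 2 and 3. Both groups held a high and a low mouse, and alopecic replicate 2 lay below all but 1 unaffected array. The difference was 0.73 (SE 0.99, 95% interval -1.72 to 3.18, limma adjusted p = 0.911). It was -0.09 without alopecic replicate 1 and 1.49 without alopecic replicate 2. The subunits lay on the same side of their own means on 5 of 6 arrays, the exception being alopecic replicate 2, where S100a8 deviated by 0.25 and S100a9 by -1.16.

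Slpi had the lowest limma p of the 9. It stood at 9.90, 7.69 and 8.98 in alopecic and at 6.98, 8.31 and 7.25 in unaffected replicates 1, 2 and 3. A single pair of mice made the groups overlap, with unaffected replicate 2 above alopecic replicate 2. The difference was 1.35 (SE 0.64, 95% interval -0.22 to 2.92, limma adjusted p = 0.778), or 2.54-fold. It ran from 0.82 without alopecic replicate 1 to 1.93 without alopecic replicate 2, where the limma adjusted p was 0.599. Of its squared deviation over the 6 arrays 44.0% lay between the group means, the largest share of the 9 genes, whose median was 8.51% (all genes 14.96%).

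**Figure D2:**
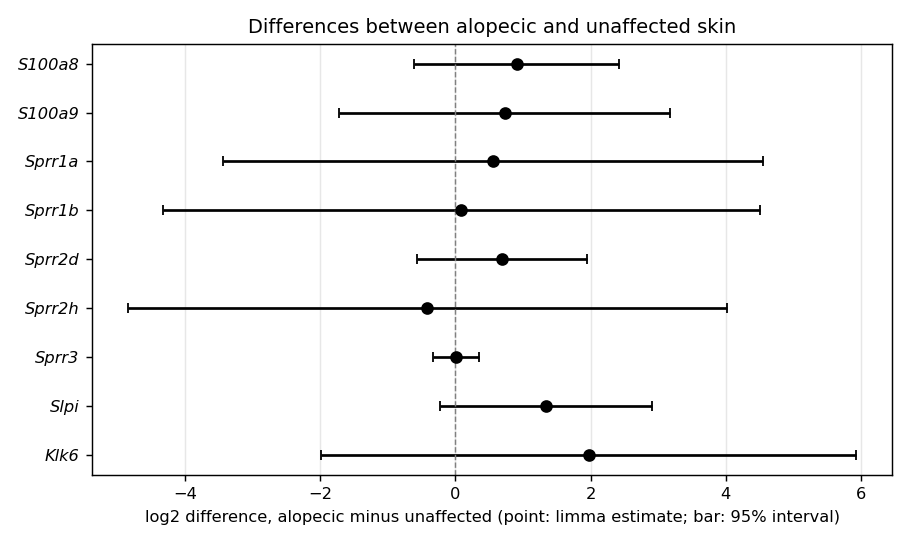
Points give the log2 difference, alopecic minus unaffected (horizontal axis), of each of the 9 genes, and bars its 95% interval from limma, not adjusted for the number of genes. All 9 intervals include 0, the narrowest being that of Sprr3 (-0.33 to 0.35) and the widest that of Sprr2h (-4.84 to 4.01).

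Klk6 had the largest difference of the 9 and a wide spread in both groups. Its log2 values were 12.11, 7.92 and 12.06 in alopecic and 10.09, 10.05 and 6.04 in unaffected replicates 1, 2 and 3. Alopecic replicates 1 and 3 lay above every unaffected array, and alopecic replicate 2 lay below all but unaffected replicate 3. The difference was 1.97 (SE 1.605, 95% interval -1.99 to 5.93, limma adjusted p = 0.861), or 3.92-fold. With 1 array left out it ran from 0.63 without unaffected replicate 3 to 3.36 without alopecic replicate 2 (SE 1.38, limma adjusted p = 0.930), and with array weights it was 0.998. Within alopecic skin the arrays spanned 18.2-fold and within unaffected skin 16.6-fold.

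The small proline-rich protein genes lie next to one another on mouse chromosome 3, in the epidermal differentiation complex. In the RefSeq annotation of GRCm38.p6 the 14 protein-coding genes from the first to the last Sprr gene were all Sprr genes, and 12 protein-coding genes stood between S100a9 and Sprr2d, the nearest of the 5 Sprr genes followed here. S100a8 and S100a9 were direct neighbours on the same chromosome, whereas Slpi lies on chromosome 2 and Klk6 on chromosome 7. The promoters of Sprr1a, Sprr1b, Sprr2h and Sprr2d are printed because all hold the same short motifs. The first 3 of these genes varied widely among unaffected mice. Sprr2d did not, at dim values between 5.48 and 5.63, where variation can be compressed. Klk6 held none of these motifs and had a standard deviation of 2.33 within unaffected skin. Whether the motifs and the variation go together was not tested. The 250 bases before the annotated start are given 5′ to 3′ on the gene's strand, from RefSeq (GRCm38.p6, the reference strain C57BL/6J, not C3H/HeJ), at chr3:92485882-92486131 (minus strand), chr3:92438780-92439029 (minus), chr3:92385435-92385684 (plus) and chr3:92338890-92339139 (plus). Capitals mark the AP-1 motif TGANTCA, searched on both strands, and the TATA motif TATAAA, searched on the gene's strand; the matches do not overlap.
Sprr1a: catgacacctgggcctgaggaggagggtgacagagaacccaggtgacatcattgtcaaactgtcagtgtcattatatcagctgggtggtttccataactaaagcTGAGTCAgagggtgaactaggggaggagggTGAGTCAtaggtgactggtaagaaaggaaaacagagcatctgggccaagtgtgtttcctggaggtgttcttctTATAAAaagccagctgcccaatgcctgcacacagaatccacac
Sprr1b: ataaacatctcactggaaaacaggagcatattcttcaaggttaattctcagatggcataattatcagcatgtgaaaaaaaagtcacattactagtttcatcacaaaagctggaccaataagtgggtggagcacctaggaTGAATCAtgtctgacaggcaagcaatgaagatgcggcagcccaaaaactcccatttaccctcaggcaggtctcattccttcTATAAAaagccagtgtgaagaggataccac
Sprr2h: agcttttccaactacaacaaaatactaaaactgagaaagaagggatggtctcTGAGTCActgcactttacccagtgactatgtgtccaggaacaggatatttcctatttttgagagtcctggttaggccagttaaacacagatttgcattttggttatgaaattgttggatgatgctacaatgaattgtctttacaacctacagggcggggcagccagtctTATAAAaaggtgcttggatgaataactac
Sprr2d: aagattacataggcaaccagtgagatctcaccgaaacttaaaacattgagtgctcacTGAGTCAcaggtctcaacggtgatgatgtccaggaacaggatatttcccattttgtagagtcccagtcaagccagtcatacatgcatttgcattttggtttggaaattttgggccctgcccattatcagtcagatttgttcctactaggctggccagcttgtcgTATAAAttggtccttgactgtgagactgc

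All 9 genes had an entry in the promoter table, with 10 promoters in all because Klk6 had more than 1. TGANTCA was found for 4 of the 9 genes, the 4 printed, and in 6.75% of 32851 promoters of the same length. Sprr1a held 2 matches, whose nearest bases lay 110 and 140 before the start, and that of Sprr1b lay 105 before it. In Sprr2h and Sprr2d the nearest base lay 192 and 187 before the start. TATAAA was found for 6 of the 9, the 5 Sprr genes and S100a8, and in 7.59% of all promoters. The interferon gamma motif known as GAS (TTCNNNGAA, both strands) was in 0 of the 10 promoters and in 7.02% of all. A match is a match of letters in this window only, and its absence says nothing of a factor.

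Sprr1a, Sprr1b and Sprr2h had similar group means, and the mice within a group differed by far more than the groups. Sprr1a had log2 values of 13.87, 10.84 and 13.32 in alopecic and of 13.65, 14.01 and 8.70 in unaffected replicates 1, 2 and 3. Sprr1b stood at 9.56, 5.29 and 7.15 in alopecic and at 7.12, 10.37 and 4.25 in unaffected replicates 1, 2 and 3. Sprr2h stood at 9.17, 7.45 and 7.53 in alopecic and at 8.40, 12.11 and 4.89 in unaffected replicates 1, 2 and 3. For each of these genes the highest and the lowest of the 6 arrays were both unaffected ones, replicate 2 and replicate 3. The unaffected mice spanned 39.4-fold for Sprr1a, 69.6-fold for Sprr1b and 149-fold for Sprr2h, and the alopecic mice 8.17-fold, 19.2-fold and 3.31-fold. The probe set of Sprr2h is also of the kind that matches more than 1 transcript, so its signal may hold other Sprr2 genes, which are close copies.

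The differences of these genes were 0.56 (SE 1.62) for Sprr1a, 0.09 (SE 1.79) for Sprr1b and -0.41 (SE 1.79) for Sprr2h, with limma adjusted p of 0.956, 0.994 and 0.971. Their sign turned on single mice: without unaffected replicate 3 they were -1.15, -1.41 and -2.20, and without unaffected replicate 2 they were 1.503, 1.65 and 1.41. Without alopecic replicate 1 Sprr1a and Sprr1b were at -0.04 and -1.02. None had an adjusted p under 0.05 in any of these fits. The 95% intervals reached from -4.33 to 4.51 for Sprr1b, which holds a large rise as well as a large fall.

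Sprr2d and Sprr3 behaved otherwise. Sprr2d had a log2 value of 7.44 in alopecic replicate 1 and values between 5.48 and 5.71 on the other 5 arrays, all of them below the median of their array. Its difference of 0.69 (SE 0.51, limma adjusted p = 0.859) was 0.09 without that mouse. Sprr3, a small proline-rich protein best known from the oesophagus, stayed between 4.78 and 5.10 on all 6 arrays, below the median of each, with a difference of 0.01 (SE 0.14, limma adjusted p = 0.989). With so dim a signal a change of this gene could be compressed below what the array can show. The lists used here held 15 small proline-rich protein genes, of which 8 were measured, 5 of them described above; 0 of the 8 passed and the median difference was 0.05. Sprr2i and Sprr2k differed by 0.01 (SE 0.18) and 0.14 (SE 0.20). Sprr2f stood at 7.80 in unaffected replicate 2 and between 3.86 and 4.11 on the other 5 arrays.

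**Figure D3:**
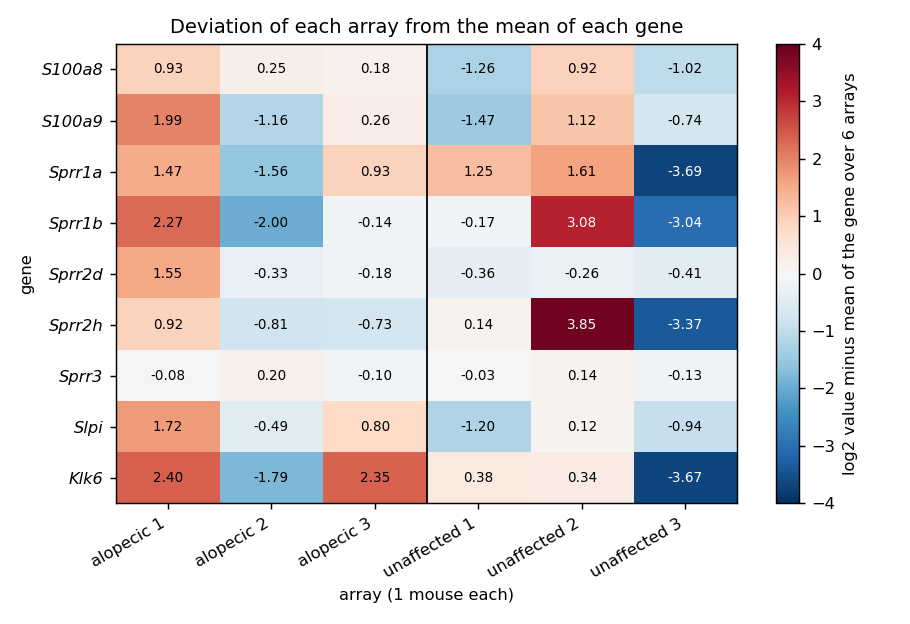
The colour and number in each cell give the log2 value of a gene (rows) on an array (columns, 1 mouse each) minus the gene's mean over the 6 arrays. Alopecic replicate 1 and unaffected replicate 2 are above the mean for 8 of 9 genes each, and unaffected replicate 3 is below it for all 9.

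Seen by mouse rather than by group, alopecic replicate 1 held the highest value for 5 of the 9 genes (S100a8, S100a9, Sprr2d, Slpi and Klk6) and unaffected replicate 2 for 3 (Sprr1a, Sprr1b and Sprr2h). Unaffected replicate 3 held the lowest for 6, and unaffected replicate 1 for the other 3, which were S100a8, S100a9 and Slpi. Unaffected replicate 3 lay below the gene's mean for all 9 genes, with a median deviation of -1.02 that reached -3.69 for Sprr1a. Alopecic replicate 2 lay below it for 7 of 9, with a median of -0.81. The standard deviation within unaffected skin was 2.96 for Sprr1a, 3.06 for Sprr1b, 3.61 for Sprr2h and 2.33 for Klk6. Those of Sprr1a, Sprr1b, Sprr2h and Klk6 were at least as high as in 99.5%, 99.5%, 99.6% and 99.0% of all genes. The range over the 6 arrays was above 2 log2 units in 7 of the 9 genes and in 9.55% of all genes.

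**Figure D4:**
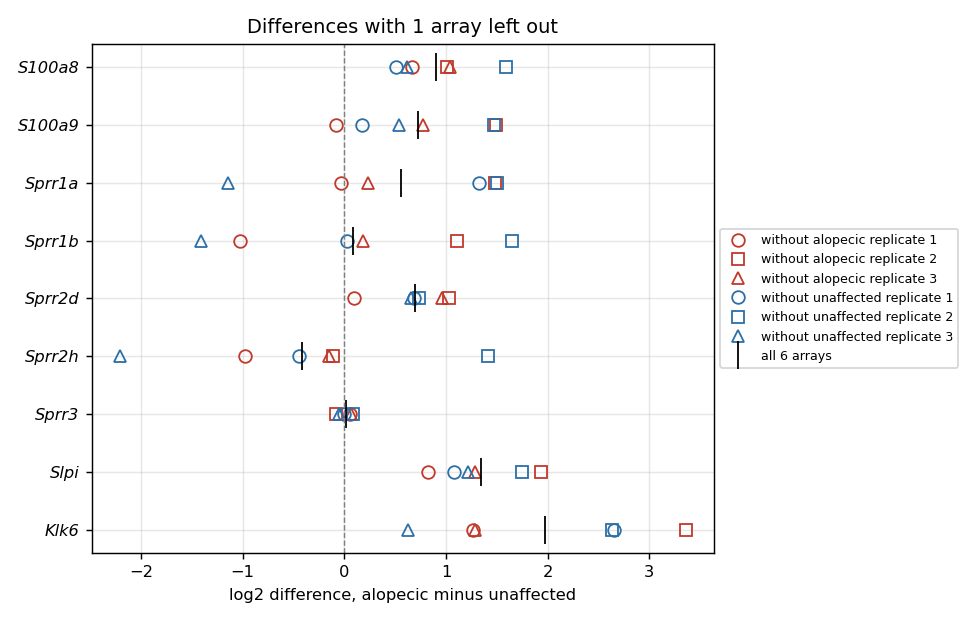
Symbols give the log2 difference, alopecic minus unaffected (horizontal axis), of each gene with 1 array left out, and the vertical tick its value with all 6 arrays. S100a8, Sprr2d, Slpi and Klk6 stay above 0 in all 6 fits, while Sprr2h runs from -2.20 to 1.41.

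Hair shaft keratins, made in growing follicles, set the same unaffected mouse apart. The mean log2 value of 12 hair shaft keratins was 11.77 and 12.76 in unaffected replicates 1 and 2 and 5.94 in unaffected replicate 3, against 10.06 to 10.63 in alopecic skin. Krt33a and Krt31 differed by 1.09 (SE 2.52) and 0.36 (SE 2.05), and of the inner root sheath genes Krt25 and Tchh differed by 2.36 (SE 2.33) and 1.57 (SE 1.76). None of the 12 hair shaft keratins and 10 inner root sheath genes passed. The median difference was 0.01 for the hair shaft keratins and 1.32 for the inner root sheath genes. Without unaffected replicate 3 these medians were -1.99 and -1.37, so their sign turned on that mouse. Of 35 measured genes of the cornified envelope and late epidermal differentiation 0 passed the test (median difference -0.18), and Sbsn and Krtdap differed by -0.20 (SE 0.22) and -0.12 (SE 0.33). In 3 of the 35, Scel (-0.50, SE 0.17), Lce3a (-0.46, SE 0.24) and Lce3b (-0.37, SE 0.15), the groups did not overlap and alopecic skin was lower. Of all genes 13.1% had groups that did not overlap. The mean level of the 35 genes was 10.81, 10.60 and 8.45 in unaffected replicates 1, 2 and 3. It was 9.76 to 10.80 in alopecic skin, so unaffected replicate 3 had the lowest mean there too. The mean of 8 epidermal keratins, in contrast, was 12.26 to 12.45 in unaffected and 11.90 to 12.45 in alopecic skin. Krt10, of the layers above the basal one, differed by -0.30 (SE 0.33). In 3 of the 8 the groups did not overlap: Krt14 and Krt5 stood higher in alopecic skin by 0.48 (SE 0.14) and 0.40 (SE 0.15), and Krt15 differed by -0.86 (SE 0.25); 0 of the 8 passed. In RNA of whole skin, fewer cells of a type and less RNA per cell cannot be told apart, and the part of follicle cells in the values of the 9 genes was not tested.

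**Figure D5:**
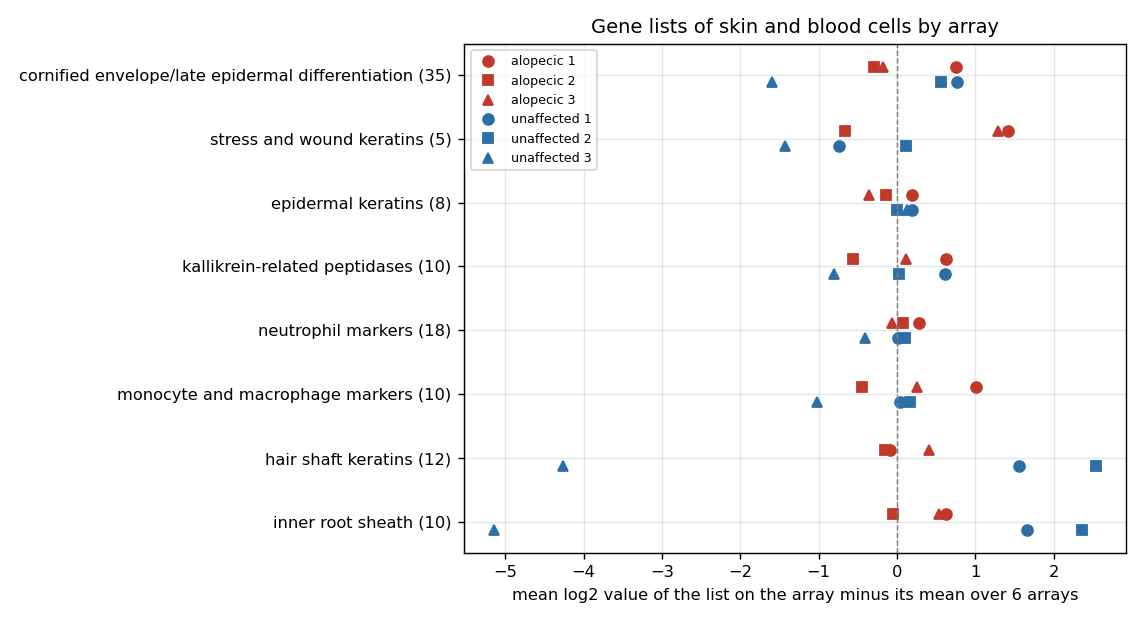
For 8 gene lists (number of measured genes in brackets) symbols give the mean log2 value of the list on each array minus its mean over the 6 arrays. Hair shaft and inner root sheath genes set unaffected replicate 3 far below the others, and epidermal keratins differ least.

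Markers of neutrophils, which carry much calprotectin, showed no call. Among all genes 13.1% had groups that did not overlap, and 7.15% had an unadjusted limma p under 0.05. Of 18 measured markers out of 23, 0 passed the test, 1 had an unadjusted limma p under 0.05, and the median difference was -0.001. Il1r2, the decoy receptor of interleukin 1 and the brightest of them, differed by -0.51 (SE 0.30). Below the array median on all 6 arrays lay 10 of the 18, among them the receptors Csf3r (difference -0.004, SE 0.13) and Cxcr2 (0.10, SE 0.11). The log2 of their summed signal ran from 11.13 to 12.18 in alopecic and from 11.13 to 11.42 in unaffected skin. Stfa3, a stefin of the cysteine protease inhibitors, was the marker with the unadjusted p under 0.05 and the only one of the 18 whose groups did not overlap: it stood at 10.68, 11.36 and 9.21 in alopecic and 8.79, 6.48 and 5.58 in unaffected replicates 1, 2 and 3 (difference 3.47, SE 0.96, limma adjusted p = 0.497). Of 7 chemokines and growth factors that attract neutrophils 0 passed, with a median of 0.31. In 3 of the 7 the groups did not overlap, all higher in alopecic skin: Cxcl1 by 0.31 (SE 0.13, limma adjusted p = 0.729), Cxcl2 by 0.39 (SE 0.17) and Cxcl3 by 0.70 (SE 0.25), the last with an unadjusted limma p under 0.05. The brightest 2 were Cxcl1 and Csf3, which differed by -0.12 (SE 0.15), and 6 of the 7 lay below the array median on all 6 arrays. Monocyte and macrophage markers, 10 of 12 measured, had a median of 0.26 and 0 past the test. Their mean level was 8.86, 7.40 and 8.11 in alopecic and 7.89, 8.02 and 6.83 in unaffected replicates 1, 2 and 3, with summed signals from 11.66 to 13.02 and from 11.38 to 12.39 as log2. In 4 of the 10 the groups did not overlap, all higher in alopecic skin: the chemokine receptors Ccr2 by 2.22 (SE 0.64, limma adjusted p = 0.524) and Cx3cr1 by 0.58 (SE 0.25), the integrin Itgax by 1.66 (SE 0.52) and Fcgr1 by 0.11 (SE 0.10). Ccr2 and Itgax had an unadjusted limma p under 0.05. The brightest 2, Csf1r, the receptor for the growth factor of the lineage, and Mrc1, differed by 0.10 (SE 0.41) and 0.23 (SE 0.88). The part of these cells in the values of S100a8, S100a9 and Slpi was not tested.

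The receptors that sense calprotectin did not pass either. Of 12 measured genes of alarmin sensing 0 passed, with a median of 0.08, and in 3 the groups did not overlap (13.1% of all genes). Tlr2 and the adaptor Myd88 stood higher on all alopecic arrays, by 0.87 (SE 0.27, limma adjusted p = 0.552) and 0.55 (SE 0.20, limma adjusted p = 0.640). Both had an unadjusted limma p under 0.05, as had 7.15% of all genes. The groups overlapped for Tlr4, Ager and Bsg. Tlr4 differed by 0.28 (SE 0.35, limma adjusted p = 0.900), Ager, which encodes the receptor RAGE, by -0.14 (SE 0.11, limma adjusted p = 0.859) and Bsg by -0.14 (SE 0.26). Cd36, a scavenger receptor, was lower on all alopecic arrays, with a difference of -0.92 (SE 0.43, limma adjusted p = 0.762). Other alarmins, 15 of 17 measured, had a median of 0.01 and 0 past the test; Lgals3 and Anxa1 differed by -0.13 (SE 0.16) and -0.12 (SE 0.23). Of 28 measured inducers of keratinocyte inflammation and their receptors 1 rose: Ifng, interferon gamma, with a difference of 2.24 (SE 0.25, limma adjusted p = 0.0494). Its log2 values were 7.51, 6.76 and 6.69 in alopecic and 4.54, 4.86 and 4.86 in unaffected replicates 1, 2 and 3. The call was lost at a limma adjusted p of 0.0502 with the mean of all probe sets per gene, and the limma adjusted p was 0.149 and 0.119 without alopecic replicates 2 and 3 and 0.223, 0.233 and 0.104 without unaffected replicates 1, 2 and 3, while the difference stayed between 1.98 and 2.38. Il17a, chosen after its values were seen as a textbook inducer of S100a8 and S100a9 in keratinocytes, differed by -0.13 (SE 0.16) from levels between 6.25 and 6.78. The groups of 4 more of the 28 genes did not overlap. The interleukin 17 receptor Il17ra stood higher in alopecic skin by 0.48 (SE 0.13, limma adjusted p = 0.497), Osmr, the oncostatin M receptor, by 0.77 (SE 0.20, limma adjusted p = 0.474) and Osm by 0.20 (SE 0.13), whereas Il20ra differed by -1.37 (SE 0.53, limma adjusted p = 0.691).

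Related families showed no call. Over all genes 13.1% had groups that did not overlap. Of 11 measured other S100 genes 0 passed, with a median of -0.04, and the abundant S100a6 and S100a16 differed by -0.04 (SE 0.14) and 0.37 (SE 0.35); S100a10, at 0.26 (SE 0.14), was the only one of the 11 without overlap. Of 10 other kallikrein-related peptidases 0 passed, with a median of 0.09; Klk7 and Klk5, which cleave the junctions of shedding corneocytes, differed by 0.58 (SE 0.98) and -0.64 (SE 0.71). Of 19 other protease inhibitors and WAP proteins 0 passed, with a median of -0.22; the cystatin Cst6 and the inhibitor Spint2 differed by 0.52 (SE 0.69) and 0.42 (SE 0.11). In 4 of the 19 the groups did not overlap: Spint2 and Serpinb1a (1.75, SE 0.61) stood higher in alopecic skin, and Wfdc3 (-2.29, SE 0.43, limma adjusted p = 0.209) and Wfdc15a (-0.22, SE 0.10) lower. Stress and wound keratins had a median of 0.91 over 5 genes with 0 past the test, and Krt17 and Krt6a differed by 0.91 (SE 0.46) and 0.47 (SE 0.62). Krt6b was the only one of the 5 without overlap, at 11.14, 5.96 and 9.61 in alopecic and 5.55, 5.45 and 4.94 in unaffected replicates 1, 2 and 3, a difference of 3.59 (SE 1.29, limma adjusted p = 0.638). It and Krt75 (-0.96, SE 0.38) had an unadjusted limma p under 0.05, as had 7.15% of all genes.

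The genes most like S100a8, Sprr1b, Slpi and Klk6 were sought among 5300 other genes with a range of at least 1 log2 unit, as the highest Pearson coefficients over the 6 arrays. The highest of so many coefficients over so few arrays are large by selection, and they serve as a description. For S100a8 they were Thbs1, Mfge8 and Plek (0.946, 0.943 and 0.933), and S100a9 came at rank 52 with 0.816. For Sprr1b they were Lgmn, Rab24 and Car2 (0.989, 0.984 and 0.983), with Sprr2h at rank 59 (0.922) and Sprr1a at rank 155 (0.875). For Slpi they were Unc93b1, Cybb and C1qb (0.994, 0.991 and 0.990), with S100a9 at rank 114 (0.896). For Klk6 they were Atp6v1c2, Slc39a2 and Slc11a1 (0.997, 0.997 and 0.988), with Sprr1a at rank 105 (0.901). No other of the 9 genes was among the 3 closest for any of these.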

How the data were processed

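Total RNA of skin from 6 mice was measured on 1 array each, after a Qiagen miRNeasy extraction and a 3' IVT labelling kit, per the labels' protocols. The values deposited by the authors are log2 signals of probe sets made with RMA, per the submitters' processing notes; version and genome build: not given in the sources used here. Values ran from 3.07 to 14.92 with array medians from 6.11 to 6.17, and were used as deposited. An array has no read depth, and 3 arrays per group limit the precision.

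Of 45101 probe sets 64 were controls. Platform annotation gave 34945 probe sets 1 symbol and 932 several; symbols were updated through gene identifiers (RefSeq, GRCm38.p6). Each gene was given by its brightest probe set. All 18193 genes, and separately all 45037 probe sets, were fitted by lmFit and eBayes (limma 3.58.1, R 4.3.3; alopecic minus unaffected, two-sided) and adjusted by Benjamini-Hochberg over the whole table at 0.05; the fit was tested on simulated data. Errors are SE of the fit or SD over 3 arrays. "Rose" is used for genes past the threshold.

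The 9 genes and the 16 lists of 267 genes (227 measured) were chosen with earlier results of these data known. From each list up to 3 genes past the threshold with the largest difference are named, or else the 2 with the highest mean. Tlr4, Ager, Csf3r and Cxcr2 are named in every case, and for likeness 3 genes per chosen gene. Ly6g was to be named too but was not measured. Stfa3 came from the rule of the highest mean. The genes of a list whose groups did not overlap or whose unadjusted p was under 0.05 are also named. These, Sprr2f, Sprr2i, Sprr2k, Il17a and Krt16 were chosen after their values were seen. Alternatives were the mean of probe sets, a filter on dim genes, an intensity trend, array weights, repeated quantile normalization, a replicate block and each array left out.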

Additional observations from a re-analysis of the deposited data

How the results depend on the processing

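The count of 0 among the 9 genes, and among their 9 probe sets in the separate fit, held in each of the alternatives run; the filter on dim genes left 5 of the 9 to test. The lowest adjusted limma p of any of them over the alternatives was 0.291 (Slpi, array weights). At an unadjusted limma p under 0.05 the count was 1 with array weights, 1 without alopecic replicate 2 and 2 without unaffected replicate 2, these being Slpi and, in the last, S100a8. Of all 18193 genes 2991, 1016 and 1208 were under 0.05 in the same 3 fits. S100a8, Sprr2d, Slpi and Klk6 kept their sign throughout. With array weights the differences of Sprr1a, Sprr1b and Sprr3 turned to -0.77, -0.82 and -0.0121. With 1 array left out the differences ran from 0.50 to 1.59 for S100a8, from 0.09 to 1.03 for Sprr2d, from 0.82 to 1.93 for Slpi, from 0.63 to 3.36 for Klk6, from -0.0852 to 1.49 for S100a9, from -1.15 to 1.503 for Sprr1a, from -1.41 to 1.65 for Sprr1b, from -2.20 to 1.41 for Sprr2h and from -0.0847 to 0.0839 for Sprr3. The count over all genes, a result added after seeing the data, was 50 and became 139 with array weights, 33, 14 and 17 without alopecic replicates 1, 2 and 3, 7, 4 and 39 without unaffected replicates 1, 2 and 3, and 0 with the replicate block (873 at an unadjusted limma p under 0.05); the cause was not tested. Deviations of same-numbered arrays from their group means correlated at -0.13, -0.20 and -0.33 across genes. Those of differently numbered arrays correlated from -0.09 to 0.377. Deviations within a group are tied to each other, so these values do not settle whether the replicate numbers pair the mice. With the block 0 of the 9 passed and the limma adjusted p of Ifng was 0.375. Signals near background limit Sprr3 and Sprr2d, and 3 arrays per group limit the rest.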

Other observations

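Some antimicrobial proteins of skin and myeloid cells separated the groups where the alarmins did not. Of 19 measured antimicrobial genes 0 passed the limma test and 6 had an unadjusted limma p under 0.05, against 7.15% of all genes. In 8 the groups did not overlap, 5 higher and 3 lower in alopecic skin (13.1% of all genes did not overlap). The genes named from this list, except the brightest 2, were chosen after their values were seen. Lcn2, lipocalin 2, which binds bacterial siderophores, stood at 10.96, 10.05 and 9.19 in alopecic and at 6.17, 7.42 and 5.22 in unaffected replicates 1, 2 and 3, a difference of 3.80 (SE 0.68, adjusted p = 0.184 by limma). Pglyrp1, a peptidoglycan recognition protein, differed by 2.07 (SE 0.42, limma adjusted p = 0.266), Chil1 by 2.58 (SE 0.74), Ang4 by 1.38 (SE 0.40) and Chil3 by 1.22 (SE 0.46). The 3 that were lower in all alopecic arrays were Defb1, a beta-defensin, at -0.85 (SE 0.34), Defb8 at -0.14 (SE 0.11) and Reg3g at -0.07 (SE 0.09), the last 2 dim on all arrays. The brightest 2 of the list, Defb6 and Rnase4, differed by 0.34 (SE 0.26) and 0.13 (SE 0.29). Lcn2 is often read beside S100a8 and S100a9; here its arrays did not overlap between the groups while theirs did, and the difference between these genes was not tested.

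Krt16, a keratin of wounded epidermis, had log2 values of 12.72, 9.59 and 12.09 in alopecic and 8.24, 10.53 and 7.13 in unaffected replicates 1, 2 and 3 (difference 2.83, SE 1.15, limma adjusted p = 0.700). Its groups overlapped. Klk6 and Krt6b showed the same order of the alopecic mice, with replicate 2 far below the others. This order, replicate 1 above 3 and 3 above 2, held for all of the 9 genes except S100a8 and Sprr3, so it was not particular to Klk6.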
